A study of Mus musculus with 66 samples.

Results

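Collagen chain genes are the 44 genes of the tables whose mouse symbol is Col, a type number, the letter a and a chain number, out of 39179 genes in all; Ensembl identifiers were given symbols by their match to the GENCODE M21 annotation, which held 37693 of them. All 44 had at least 1 count in some library. They were read in 2 mouse samples: BC57, a bladder cancer cell line grown in culture, and normal urothelium, the epithelium lining the bladder, taken from 9 mice. Each sample was divided, and 1 portion was frozen (FF) while the other was kept in formalin for 24 h and embedded in paraffin (FFPE). Libraries came from the Ovation SoLo kit at 50 pg, 250 pg and 2 ng of total RNA, from the SMARTer Pico kit at 250 pg and 2 ng, both of them low-input kits for total RNA that include removal of ribosomal sequence, and from a poly(A) protocol at 1 µg of frozen RNA, giving 22 groups of 3 libraries and 66 libraries. The design names 4 samples tested in triplicate, so the libraries of a group repeat the library preparation on 1 sample and p-values measure only the spread between such libraries. How the tissue of the 9 mice was combined, and the strain, age and sex of the mice, are not stated in the labels.

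Collagens are triple helices of 3 chains, alike or different, and each kind of chain is encoded by its own gene. Fibrillar collagens form the tensile fibres of connective tissue and are made chiefly by fibroblasts, type IV collagen forms the sheet of the basement membrane on which an epithelium sits, and the epithelial types VII and XVII tie basal cells to that sheet through anchoring fibrils and hemidesmosomes. Microfibrillar type VI forms beaded filaments, and the FACIT collagens (fibril-associated collagens with interrupted triple helices) decorate fibre surfaces. By these roles the members were 11 fibrillar, 8 basement membrane, 2 epithelial attachment, 6 microfibrillar, 9 FACIT, 3 short-chain network, 3 other transmembrane and 2 other genes.

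The total count per library ran from 928722 to 4706030 with Ovation, from 651879 to 7152648 with SMARTer and from 18499591 to 36187226 with poly(A). The SMARTer libraries numbered 3 of fixed RNA stood apart in both samples and at both inputs: in fixed urothelium at 2 ng, Col1a1 was at 1172 CPM (counts scaled to a total of 1000000 in every library, with TMM factors) in library 3 against 4687 and 4407 in the others. Counts of members called that rest on them are also given without them. Among the other libraries, frozen urothelium Ovation 250 pg number 3 held Col4a1 at 93.7 CPM against 214 and 227. Frozen BC57 SMARTer 2 ng number 3 had a count in 21989 genes, against 17357 and 17707 in the others of its group. The urothelium libraries carried more than epithelium. In poly(A) libraries the summed level of the 14 urothelial markers was 14459 to 16485 CPM in urothelium and 1389 to 1472 CPM in BC57. The 12 fibroblast markers summed to 4680 to 5012 CPM in urothelium and 734 to 818 CPM in BC57, where the matrix genes Fn1 and Fbln2 made up most of it and Dcn, on the scaling of these 6 libraries, was at 0.424 CPM against 1600 CPM in urothelium. The 8 endothelial markers summed to 374 to 407 and to 1.71 to 2.59 CPM. No marker of these 3 lists was at 0 in all libraries of either group. In bulk RNA, fewer cells of a type and less RNA per cell cannot be told apart, and the part of these other cells in the collagen differences was not tested.

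Collagen transcripts were a far larger part of the urothelium libraries than of BC57. They took 1.04% to 1.64% of all counts across the 11 urothelium groups and 0.0481% to 0.111% across the 11 BC57 groups. In urothelium the leading genes were fibrillar. Per length, in TPM (counts per kilobase of exon, scaled to a total of 1000000), poly(A) urothelium held Col1a1 at 997 ± 58.5 (SD, n = 3), Col3a1 at 732 ± 8.01 and Col1a2 at 615 ± 14.7, followed by Col6a1 at 283 ± 7.33. Col4a1 at 120 ± 5.18 and Col6a2 at 120 ± 4.34 did not differ beyond their spread. These 3 fibrillar genes were the leading 3 in 11 of 11 urothelium groups, but their own order turned with the gene length used: on the longest transcript Col1a2 led at 1155 TPM, with Col3a1 at 1043 and Col1a1 at 892. In BC57 the leading genes were those of the basement membrane. Poly(A) BC57 held Col4a1 at 156 ± 0.50 TPM, Col4a2 at 131 ± 0.83 and Col18a1, the source of the endostatin fragment, at 56.8 ± 0.80. These led in 9 of 11 BC57 groups. In the other two, fixed Ovation at 250 pg and 50 pg, Col4a5 took the place of Col18a1.

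**Figure D1:**
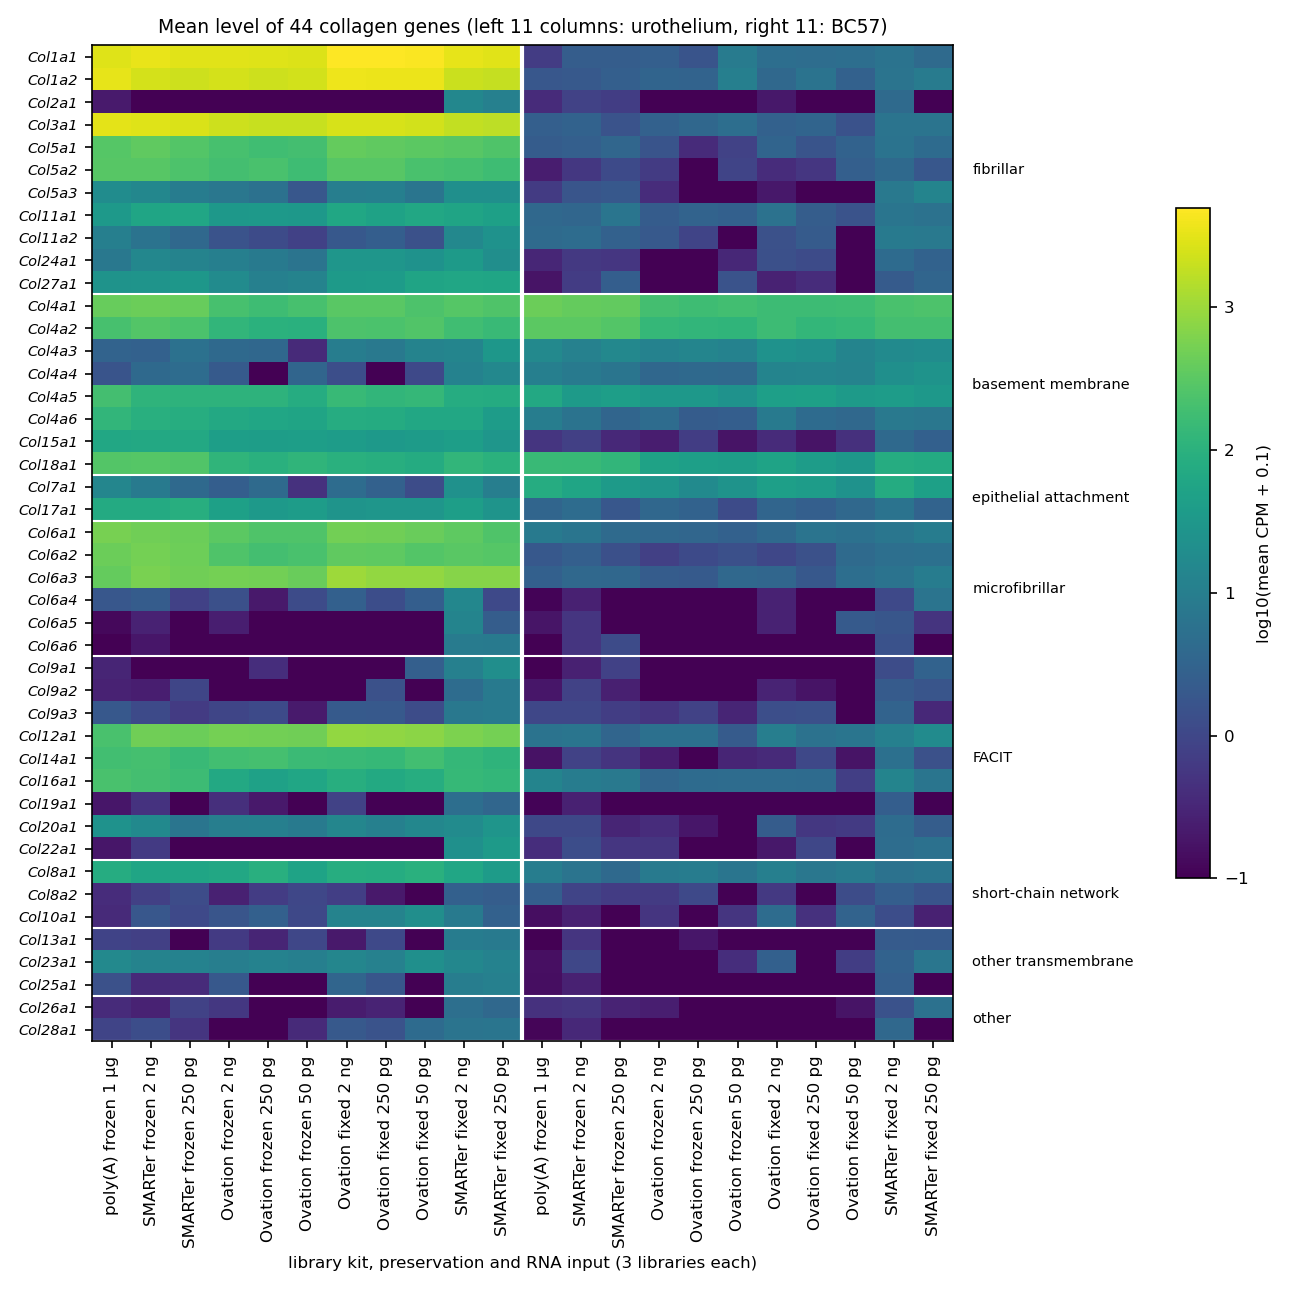
Mean level of each of the 44 collagen genes in the 22 groups, as the base 10 logarithm of CPM + 0.1, with rows split by class, urothelium in the left 11 columns and BC57 in the right 11. The fibrillar rows Col1a1, Col1a2 and Col3a1 are bright only on the urothelium side, while Col4a1, Col4a2 and Col18a1 are bright on both sides, and Col7a1 is brighter in BC57.

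Classes divided the 2 samples in every kit. In poly(A) urothelium, fibrillar genes made up 74.3% ± 0.31 of collagen CPM, microfibrillar genes 10.1% ± 0.054 and basement membrane genes 9.37% ± 0.13. In poly(A) BC57, basement membrane genes made up 87.5% ± 0.28, the epithelial attachment pair 7.06% ± 0.25 and fibrillar genes 1.38% ± 0.14. Leaving aside the SMARTer fixed libraries numbered 3, the fibrillar share lay between 71% and 77.2% in 31 urothelium libraries and between 0.989% and 8.08% in 31 BC57 libraries. The basement membrane share lay between 4.97% and 9.82% in urothelium and between 75.2% and 91.6% in BC57. In the SMARTer fixed libraries numbered 3, the fibrillar share was 52.2% and 56.2% in urothelium and 15.2% and 15.3% in BC57, so in these the 2 samples were less far apart.

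**Figure D2:**
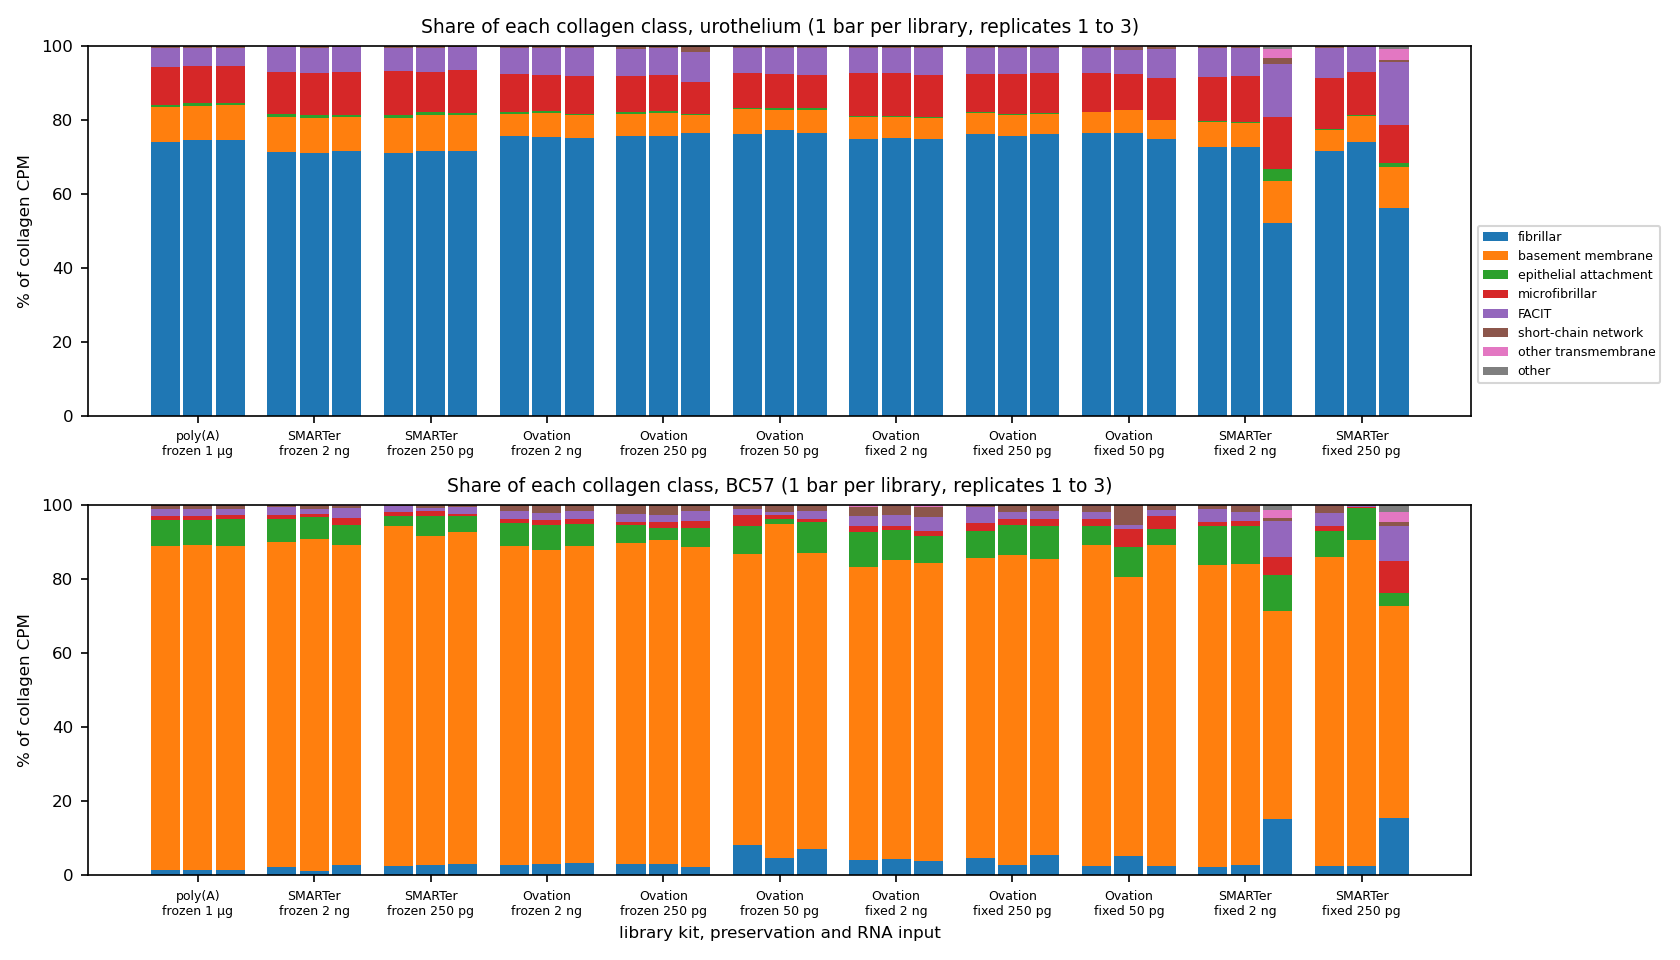
Share of summed collagen CPM (%) held by each class, 1 stacked bar per library in replicate order, urothelium above and BC57 below. Fibrillar genes fill most of each urothelium bar and basement membrane genes most of each BC57 bar, and the last bar of both SMARTer fixed groups departs from its neighbours.

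The sequences before 2 of the gene starts are shown because the genes moved in opposite directions between the samples, the fibrillar Col3a1 lower and the anchoring fibril gene Col7a1 higher in BC57. Both are on the plus strand of the GRCm38.p6 build, from RefSeq, and cover the 250 bases before the start, at chr1:45311288-45311537 for Col3a1 and chr9:108953336-108953585 for Col7a1. Capitals mark the TATA-box letters TATAAA, the box read as CCAAT or the GC-box letters GGGCGG, each searched on its own on both strands, so that the reverse complements are marked too. Matches were taken anywhere in the 250 bases, and whether any of them acts as a promoter box was not tested.
Col3a1: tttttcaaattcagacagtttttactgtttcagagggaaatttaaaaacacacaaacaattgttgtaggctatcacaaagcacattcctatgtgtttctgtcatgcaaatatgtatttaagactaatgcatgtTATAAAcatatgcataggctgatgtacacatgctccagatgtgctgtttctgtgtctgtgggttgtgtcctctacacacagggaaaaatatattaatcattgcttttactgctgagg
Col7a1: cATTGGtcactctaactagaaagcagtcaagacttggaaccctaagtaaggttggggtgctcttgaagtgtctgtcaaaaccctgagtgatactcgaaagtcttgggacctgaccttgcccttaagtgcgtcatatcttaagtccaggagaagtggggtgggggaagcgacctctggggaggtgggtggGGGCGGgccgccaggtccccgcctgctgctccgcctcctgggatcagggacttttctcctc
The Col3a1 window held 1 TATAAA and the Col7a1 window 1 CCAAT (as ATTGG) and 1 GGGCGG. RefSeq sequences were matched for 35 of the 44 genes, with 38 starts, of which 5 windows (13.2%) held TATAAA, 13 (34.2%) CCAAT and 22 (57.9%) GGGCGG. Among all 32851 such windows of the genome the shares were 12.4%, 33.8% and 32.7%. The motif TGANTCA, the AP-1 site, was in 1 collagen window (2.63%) against 6.75% of all. Col1a1 and Col4a3 were among the genes with no entry.

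The type IV genes lie in head-to-head pairs, each pair transcribed outward from a shared start region. Col4a4 (chr1:82448423-82586849, minus strand) and Col4a3 (chr1:82586921-82722059, plus strand) are separated by 71 bases, shown because both genes were higher in BC57 than in urothelium with the poly(A) protocol. The interval, chr1:82586850-82586920, reads on the minus strand as follows, and holds none of the motifs above.
Col4a4 to Col4a3 interval: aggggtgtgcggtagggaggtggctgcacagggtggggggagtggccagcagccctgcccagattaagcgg
Col4a1 (chr8:11198423-11312826, minus strand) and Col4a2 (chr8:11312805-11449287, plus strand) overlap by 22 bases. Col4a6 and Col4a5 on chromosome X are separated by 1308 bases.

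The first comparison was BC57 against urothelium, which the design repeats in 11 conditions of kit, preservation and input. With the poly(A) protocol, 29 collagen genes were lower and 6 higher in BC57 of 35 tested (edgeR quasi-likelihood test, adjusted p under 0.05), and 91.3% of all 17934 genes tested were called, 48.5% lower and 42.8% higher. The median log2 fold change was -4.85 over the collagen genes, or -4.52 with the gene at 0 counts in BC57 set to its bound, and -0.12 over all genes tested. In none of the 35 genes did the 2 groups of 3 libraries overlap. The share of all genes without overlap was not counted, so this does not set the collagen genes apart. The 9 other members had too few counts to be tested. With all libraries thinned to equal depth, 22 members were called. Counts of members under such alternative settings are given here and below without the share of all genes, unless one is printed beside them. They do not show whether collagen genes moved more than other genes. Levels in CPM, ratios and bounds given beside a test are on the scaling of that test's 6 libraries. On the scaling over all 66 libraries used for the sums, differences shifted by between -0.42 and 0.30 on the log2 scale, depending on the comparison.

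With the poly(A) protocol, fibrillar genes had the lowest median of the classes with at least 3 genes tested. All 10 tested were lower in BC57, with a median log2 fold change of -7.33. Col1a1, which with Col1a2 makes type I collagen, was at 0.788, 0.390 and 0.582 CPM in the BC57 libraries and at 2182, 2488 and 2565 CPM in urothelium, a log2 fold change of -11.91 ± 0.10 (SE; adjusted p = 1.9e-26). Col1a2 was at 1.87, 1.56 and 1.83 CPM in BC57 against 2661, 2846 and 2939 CPM, a log2 fold change of -10.62 ± 0.07. Col3a1, the type III chain of reticular fibres, was at 2.66, 2.01 and 2.80 CPM in BC57 against 2548, 2647 and 2740 CPM, a log2 fold change of -10.0 ± 0.07. All 3 genes were thus near the foot of the BC57 libraries and among the abundant transcripts of urothelium. The type V chains, which nucleate and thin type I fibrils, were lower by log2 fold changes of -6.69 for Col5a1, -10.68 for Col5a2 and -4.85 for Col5a3. The remaining fibrillar genes ran from Col27a1 at -7.98 through Col24a1 at -4.99 and Col11a1 at -2.88 to Col11a2 at -1.10.

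Type VI and the FACIT genes followed the same direction. Col6a1 was at 8.47, 8.47 and 8.85 CPM in BC57 and at 431, 465 and 477 CPM in urothelium (log2 fold change -5.73), Col6a2 stood at -7.67 and Col6a3 at -6.98. Col6a4 had 1 count in BC57 and 116 in urothelium, a ratio of 128 with a 95% counting interval of 22.6 to 5108. Of the FACIT genes, Col14a1 was at 0.0876, 0.0558 and 0.0582 CPM in BC57 against 158, 157 and 155 CPM in urothelium, a log2 fold change of -11.05. Col12a1 stood at -4.98, Col20a1 at -4.50, Col16a1 at -3.84 and Col9a3 at -0.76. Of the membrane-spanning collagens, Col23a1 was lower at -7.74 and Col25a1 at -4.52, and Col13a1 had 0 counts in BC57 against 51 in urothelium, at least 18.8-fold lower on a floor of 3 counts over the group. Col28a1 had 1 count against 54, a ratio of 59.7 (10.3 to 2401). In the short-chain class the vessel-wall and corneal genes divided: Col8a1 was lower at -2.85, and Col8a2 was higher at 3.31 ± 0.26, from 0.255, 0.346 and 0.153 CPM in urothelium to 2.54, 2.29 and 2.45 CPM in BC57.

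The basement membrane class split 4 against 4, with a median of -0.10 beside -0.12 over all genes. Col4a1 was at 442, 435 and 445 CPM in BC57 and at 309, 327 and 354 CPM in urothelium, a log2 fold change of 0.42 ± 0.04 (adjusted p = 1.8e-08). Col4a2, its partner in the common type IV helix, was at 329, 323 and 327 CPM against 171, 181 and 194 CPM, a log2 fold change of 0.84 ± 0.04. The minor chains parted by pair. Col4a3 and Col4a4, known from specialised membranes such as that of the kidney glomerulus, were higher at 2.73 ± 0.11 and 2.91 ± 0.13, from 2.11 to 3.17 and 1.17 to 1.62 CPM in urothelium to 15.6 to 16.8 and 9.81 to 10.6 CPM in BC57. Col4a5 and Col4a6, the pair on chromosome X, were lower at -1.27 ± 0.04 and -3.46 ± 0.06. Col18a1 was at 152, 151 and 149 CPM in BC57 against 214, 233 and 241 CPM, a log2 fold change of -0.61 ± 0.04, while Col15a1, found with Col18a1 in the basement membrane zone, was lower by far more at -6.96 ± 0.11.

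The 2 epithelial attachment genes moved in opposite directions. Col7a1, whose product forms the anchoring fibrils, was at 81.1, 74.9 and 81.1 CPM in BC57 and at 11.7, 11.6 and 12.5 CPM in urothelium, a log2 fold change of 2.73 ± 0.06 (adjusted p = 1.1e-20). Col17a1, a transmembrane component of the hemidesmosome, was at 3.62, 2.95 and 3.41 CPM in BC57 and at 60.2, 61.4 and 66.5 CPM in urothelium, a log2 fold change of -4.21 ± 0.07 (adjusted p = 8.8e-22). Their summed level, on the scaling over all libraries, was 75.3 to 87.3 CPM in BC57 and 83.8 to 95.9 CPM in urothelium, so that the ranges of the sum overlapped while those of neither gene did.

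The design repeats the comparison, and the major fibrillar and type VI genes were lower each time. Which class had the lowest median changed with the condition. With Ovation on fixed RNA at 2 ng the median log2 fold change was -7.311 for fibrillar and -8.215 for microfibrillar genes. With Ovation on frozen RNA at 250 pg the medians were -9.222 and -7.708. The 10 members that were lower in all 11 conditions were Col1a1, Col1a2, Col3a1, Col5a1, Col5a2, Col6a1, Col6a2, Col6a3, Col12a1 and Col14a1. A further 11 made 21 that were lower in at least 9, and 0 were higher in all 11. Without the SMARTer fixed libraries numbered 3, 17 were lower in all 11 and 22 in at least 9, and again 0 were higher in all. How many of all genes were lower in as many conditions was not counted, so these counts do not set the collagen genes apart. Col17a1 was lower in 10 of 11, the exception being SMARTer fixed 250 pg at -3.40 ± 0.95 (adjusted p = 0.059); without the libraries numbered 3 it was lower there too, at -3.85 ± 0.92 (adjusted p = 0.032). Col7a1 was higher in 9 of 11. Frozen Ovation libraries at 2 ng held Col7a1 at 26.42, 32.04 and 29.05 CPM in BC57 and at 3.33, 2.64 and 1.80 CPM in urothelium, a log2 fold change of 3.49 ± 0.30. The exceptions for Col7a1 were both SMARTer fixed conditions, at 1.05 ± 1.05 and 1.61 ± 0.89, and without the libraries numbered 3 it was higher at 2 ng by 3.60 ± 0.27 but did not pass at 250 pg, at 2.72 ± 0.81 (adjusted p = 0.055).

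The number called varied with kit, preservation and input, as that of all genes did. With Ovation on frozen RNA at 2 ng, 23 members were lower and 2 higher of 27 tested, where 79.1% of all genes were called (41.4% lower and 37.6% higher). At 250 pg 22 were lower and 1 higher of 26 (48% called, 26.4% lower and 21.6% higher), and at 50 pg 21 were lower and 2 higher of 26 (45.2% called, 25% lower and 20.2% higher). On fixed RNA Ovation gave 26 lower and 3 higher of 29 at 2 ng (77% called, 40.3% lower and 36.7% higher), and 26 lower and 2 higher of 30 at 250 pg (52.2% called, 28.2% lower and 24% higher). At 50 pg it gave 24 lower and 1 higher of 29 (33.5% called, 18.8% lower and 14.7% higher). The members tested were thus mostly lower in each of these conditions, while all genes divided nearly evenly. A gene passes the filter if it has enough counts in 1 of the 2 samples. Members high only in urothelium were tested through that sample and could hardly be called higher in BC57. With Ovation on frozen RNA at 2 ng, 3 of the 27 tested were at 0 counts in 1 sample. The contrast with all genes does not set the collagen genes apart.

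With SMARTer on frozen RNA 23 members were lower and 4 higher of 29 at 2 ng (77.5% called, 41.2% lower and 36.3% higher), and 22 were lower and 3 higher of 29 at 250 pg (51.4% called, 27.5% lower and 23.9% higher). On fixed RNA SMARTer gave 20 lower and 0 higher of 30 at 2 ng (30% called, 16.3% lower and 13.7% higher). At 250 pg it gave 10 lower and 0 higher of 29 (9.38% called, 5.58% lower and 3.8% higher). Without both libraries numbered 3, these became 25 lower and 2 higher of 30 (62.7% called, 33.4% lower and 29.3% higher), and 17 lower of 27 (21.4% called, 12.7% lower and 8.78% higher). Leaving out library 1 or 2 of either sample, with the libraries numbered 3 kept, took the 2 ng count to between 9 and 12 and the 250 pg count to between 1 and 3. With all libraries, the 250 pg count was 19 by DESeq2 and 19 with the spread estimated over all groups of the tables together (the shared spread), and 17 both with no filter on low counts and at equal depth.

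**Figure D3:**
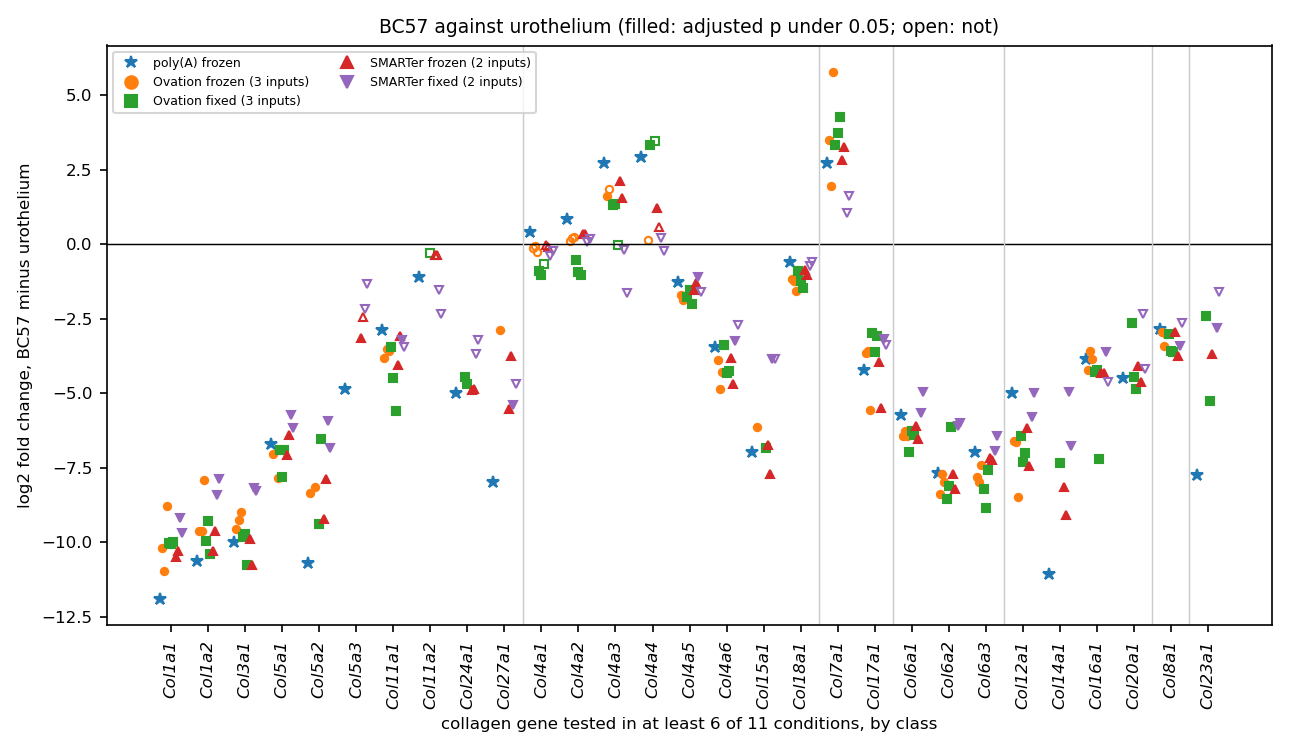
Log2 fold change of BC57 minus urothelium for the collagen genes tested in at least 6 of 11 conditions, by class (vertical lines), 1 point per condition, filled where the adjusted p is under 0.05; genes with 3 or fewer counts in a group are not drawn for that condition. Fibrillar, type VI and FACIT points lie below 0, Col7a1 lies above 0 in every condition drawn, and Col4a1 and Col4a2 lie around 0.

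Col4a1 and Col4a2 did not hold 1 direction. With Ovation on frozen RNA at 2 ng neither passed the test, at -0.13 ± 0.08 (adjusted p = 0.13) for Col4a1 and 0.11 ± 0.10 (adjusted p = 0.29) for Col4a2. With SMARTer on frozen RNA at 2 ng Col4a1 was at -0.04 ± 0.08 (adjusted p = 0.65) and Col4a2 was higher at 0.34 ± 0.08. In fixed RNA with Ovation Col4a2 was lower in BC57 at all 3 inputs and Col4a1 at 2 ng and 250 pg, while at 50 pg Col4a1 was at -0.66 ± 0.24 (adjusted p = 0.055). At 2 ng Col4a1 was at 171, 157 and 162 CPM in BC57 and at 316, 313 and 281 CPM in urothelium, -0.89 ± 0.08 (adjusted p = 1.4e-15), and Col4a2 stood at -0.55 ± 0.08. The sign of the comparison thus turned between the frozen poly(A) libraries and the fixed Ovation libraries at 2 ng for both genes. With SMARTer on fixed RNA at 2 ng Col4a1 was at -0.39 ± 0.39 (adjusted p = 0.48), and at -0.64 ± 0.13 (adjusted p = 0.00027) without the libraries numbered 3. Col4a3 was higher in 6 and Col4a4 in 4 of 11 conditions; without those libraries Col4a4 was also higher with SMARTer on fixed RNA at 2 ng, at 2.79 ± 0.49 (adjusted p = 7.7e-05). In frozen Ovation libraries at 50 pg Col4a3 had 98 counts in BC57 against 3 in urothelium, a ratio of 44.2 (14.7 to 218), and in fixed Ovation libraries at 250 pg Col4a4 had 150 counts against 0, at least 43.95-fold higher.

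**Figure D4:**
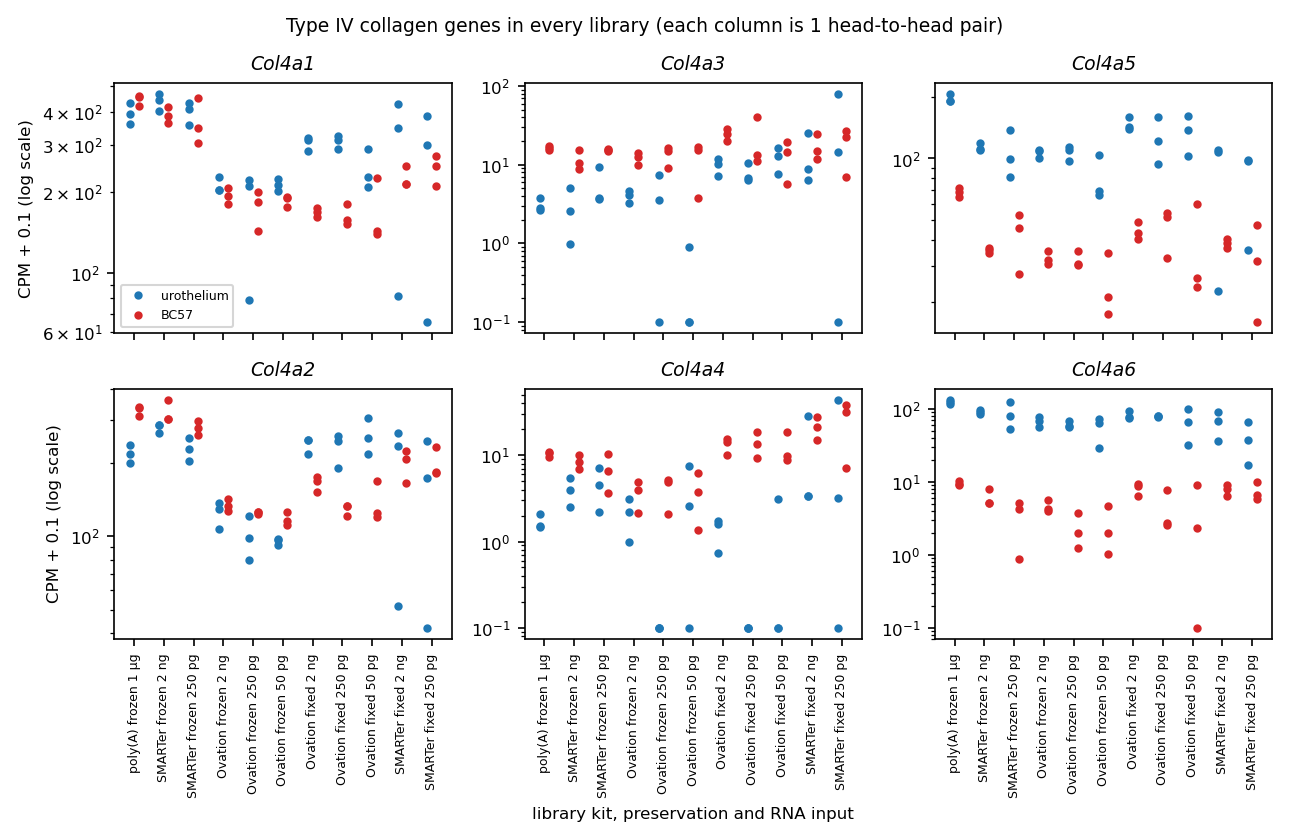
CPM + 0.1 on a log axis of the 6 type IV genes in every library, each column of panels holding 1 head-to-head pair, urothelium in blue and BC57 in red. Col4a5 and Col4a6 lie higher in urothelium in nearly every condition, while the 2 samples exchange order in Col4a1 and Col4a2 between frozen poly(A) and fixed Ovation libraries.

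The genes that modify, bind or anchor collagen were called in both directions. In the poly(A) libraries, where 42.8% of all genes were higher and 48.5% lower, of 30 genes for collagen folding, cross-linking and trimming, 14 were higher and 16 lower in BC57 (median -0.22). Of 17 tested receptor and turnover genes 6 were higher and 11 lower, and of 16 hemidesmosome and basement membrane partners 6 were higher and 9 lower. The shares of the processing list thus lay close to those of all genes. Adamts2, which trims the amino end of fibrillar procollagens, had no count in BC57 and 64.3 CPM ± 2.18 in urothelium, and Itga1, a chain of a collagen-binding integrin, had none against 17.8 CPM ± 0.66. Lama4, a laminin chain of vessel walls, stood at -10.0 ± 0.15 and Itga11, a fibrillar collagen receptor chain, at -8.83 ± 0.18.

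The second comparison was fixed against frozen RNA of the same sample and kit. In urothelium with Ovation at 2 ng, 20 collagen genes rose and 3 fell of 27 tested, where 37.3% of all genes were called, 19.3% higher and 17.9% lower. The median log2 change was 0.55 over the collagen genes and 0.001 over all genes. With the shared spread 6 members were called. Col1a1 was at 5235, 5049 and 5036 CPM in fixed and at 3343, 3014 and 2899 CPM in frozen libraries, a rise of 0.73 ± 0.05 (adjusted p = 1.6e-18). Col6a3 was at 1042, 1003 and 1042 CPM fixed and at 584, 484 and 516 CPM frozen, a rise of 0.96 ± 0.06. Col12a1 was at 879, 891 and 914 CPM fixed against 527, 519 and 521 CPM frozen, a rise of 0.78 ± 0.06. The fixed libraries lay above the frozen ones for all 3 of these genes, with no overlap.

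By class, 8 of 9 tested fibrillar genes rose, with Col1a2 at 0.62, Col3a1 at 0.27, Col5a1 at 0.88, Col5a2 at 0.59, Col11a1 at 0.97, Col24a1 at 1.49 and Col27a1 at 0.98. All 3 tested type VI genes rose, Col6a1 at 0.63 and Col6a2 at 0.52 beside Col6a3. In the basement membrane class 5 of 7 rose. Col4a1 was at 331, 327 and 290 CPM fixed against 211, 208 and 226 CPM frozen, a rise of 0.55 ± 0.08. Col4a2 was at 256, 226 and 251 CPM against 142, 133 and 105 CPM, a rise of 0.95 ± 0.09. Col4a3 rose by 1.32, Col4a5 by 0.48 and Col4a6 by 0.30. Col16a1 rose by 0.38 and Col8a1 by 0.40. Col10a1, the hypertrophic cartilage collagen, gave the widest change, from 1.63, 1.03 and 2.19 CPM to 11.88, 10.18 and 16.02 CPM, a rise of 2.92 ± 0.43 at a low level. The 3 that fell were Col18a1 at -0.27 ± 0.10, Col14a1 at -0.27 ± 0.08 and Col17a1. Col17a1 was at 28.5, 30.5 and 23.5 CPM fixed against 52.6, 43.2 and 45.1 CPM frozen, a change of -0.77 ± 0.17 (adjusted p = 0.00013).

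Cell markers moved beside these genes in part. Of 14 urothelial markers 10 fell and 0 rose, and their sum was 6258 to 6507 CPM fixed against 8716 to 8807 CPM frozen. Of 11 tested fibroblast markers 4 rose and 3 fell, with a median of 0.05, and their sum overlapped between fixed (3702 to 3769 CPM) and frozen libraries (3622 to 3734 CPM). None of 8 endothelial markers was called. The part of cell makeup in the collagen changes was not tested. Among the partner genes Adamts3, a procollagen trimming enzyme, rose by 1.81 ± 0.39 and Lox, a collagen cross-linking oxidase, by 0.90 ± 0.11, while Lamb3 and Itgb4, which anchor hemidesmosomes beside Col17a1, changed by -1.33 ± 0.14 and -0.87 ± 0.10. Of the hemidesmosome and basement membrane list 3 of 16 rose and 7 fell, of the receptor and turnover list 6 of 14 rose and 2 fell, and of the processing list 5 of 24 rose and 4 fell, near the 19.3% and 17.9% of all genes.

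At lower input Ovation called fewer members but of the same sign. At 250 pg 9 of 28 rose, where 3.3% of all genes were called (1.86% higher and 1.45% lower): Col1a1 (0.71), Col1a2 (0.74), Col5a1 (1.02), Col27a1 (1.83), Col4a2 (1.23), Col6a1 (0.92), Col6a2 (0.77), Col6a3 (0.81) and Col12a1 (0.74). Without fixed library 2 this count was 4, and by limma it was 1. At 50 pg 10 of 27 rose, where 3.98% of all genes were called (2.33% higher and 1.65% lower): Col1a1 (0.76), Col1a2 (0.66), Col3a1 (0.28), Col5a1 (0.75), Col27a1 (2.21), Col4a2 (1.47), Col6a1 (0.76), Col6a3 (1.10), Col12a1 (0.69) and Col10a1 (4.38). No member fell at either input, and Col17a1 was at -0.17 ± 0.40 and -0.43 ± 0.40.

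With SMARTer no collagen gene was called between fixed and frozen urothelium by edgeR, 0 of 30 at 2 ng (1.87% of all genes called, 1.32% higher and 0.551% lower) and 0 of 29 at 250 pg (0% called), with 5 and 6 members at an unadjusted p under 0.05 and 8 and 5 members called by DESeq2. At equal depth 1 member was called at 2 ng, and with the shared spread 1 at 250 pg. Fixed library 3 lay far from the other two, as given above for Col1a1. Without it, 10 rose and 3 fell of 30 at 2 ng, where 27.5% of all genes were called (13.7% higher and 13.8% lower). Those that rose were Col1a1 (0.60), Col1a2 (0.40), Col5a1 (0.36), Col11a1 (0.43), Col24a1 (1.11), Col27a1 (1.24), Col6a3 (0.94), Col12a1 (0.93), Col8a1 (0.57) and Col10a1 (2.18), and those that fell were Col15a1 (-0.55), Col18a1 (-0.70) and Col17a1 (-0.73). At 250 pg 4 of 29 rose without it (1.99% called, 0.859% higher and 1.13% lower): Col1a1 (0.61), Col1a2 (0.47), Col6a3 (1.20) and Col12a1 (0.92).

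**Figure D5:**
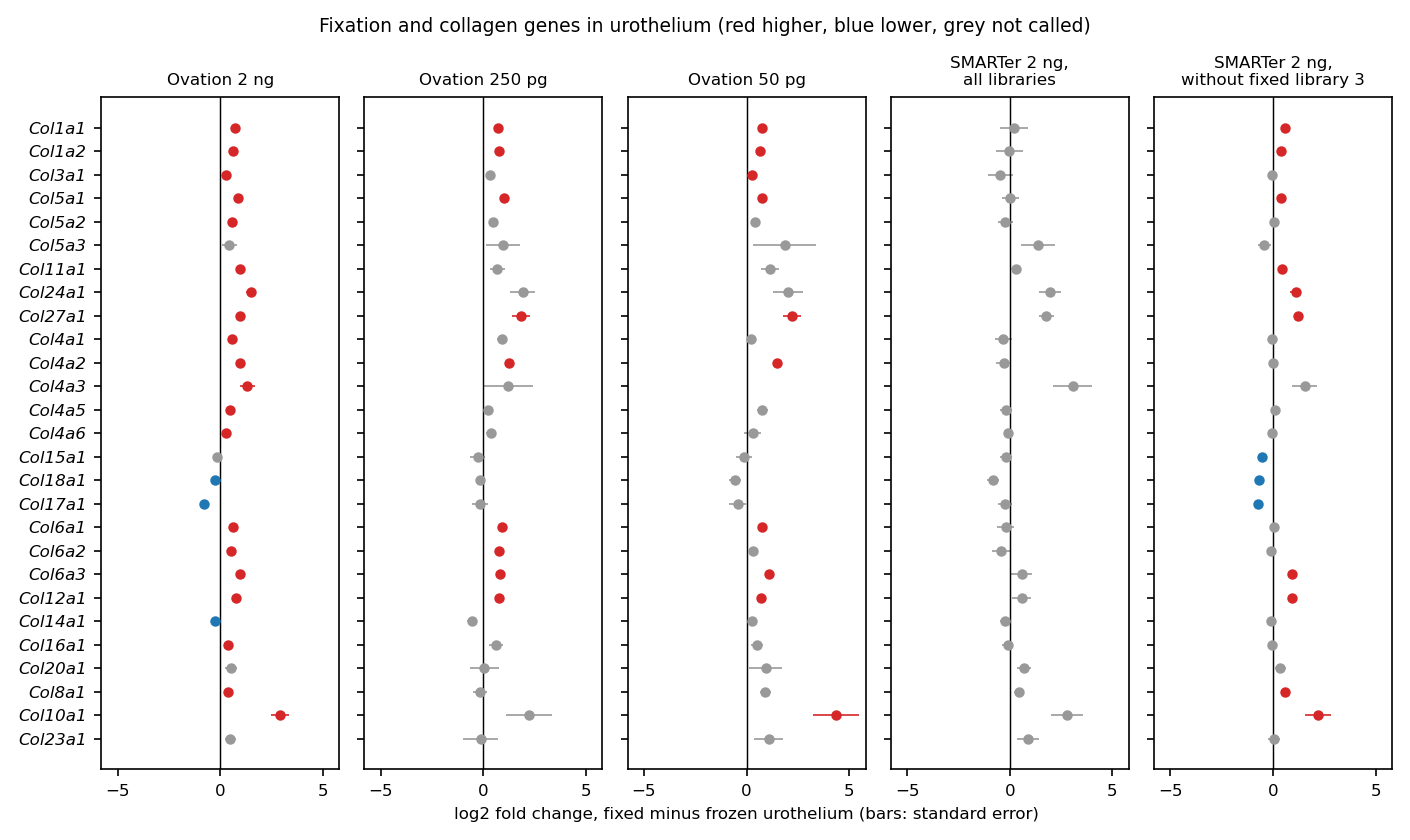
Log2 fold change of fixed minus frozen urothelium with its standard error for the 27 collagen genes tested with Ovation at 2 ng, in 5 panels by kit and input, red where higher, blue where lower and grey where not called; a gene with 3 or fewer counts in a group is not drawn in that panel. Most points lie to the right of 0 with Ovation, Col17a1 and Col18a1 lie to its left, and the SMARTer panel has called genes only without fixed library 3.

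The difference between the kits in the fixation change was itself tested at 2 ng as an interaction, a test chosen after seeing the data. With all libraries 0 of 30 members differed by edgeR, with 6 at an unadjusted p under 0.05, and 0% of all 15016 genes tested did. Without SMARTer fixed library 3, 7 of 31 had a smaller change with SMARTer than with Ovation, where 1.86% of all genes were called (1.06% in that direction and 0.803% in the other): Col3a1, Col5a1, Col5a2, Col4a1, Col4a2, Col6a1 and Col6a2. Col4a2 differed most, by -0.96 ± 0.14 (adjusted p = 4.9e-05).

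The same comparison was made in BC57. With Ovation at 2 ng 7 rose and 1 fell of 15 tested, where 32.3% of all genes were called (16.6% higher and 15.6% lower). Col7a1 was at 52.2, 43.5 and 39.7 CPM fixed against 25.56, 30.97 and 28.08 CPM frozen, a rise of 0.68 ± 0.15. Col4a4 rose by 1.86 ± 0.34, Col11a1 by 1.31, Col4a3 by 0.99, Col12a1 by 0.93, Col4a5 by 0.42 and Col4a2 by 0.28 ± 0.08. Col4a1 was at 174, 161 and 166 CPM fixed against 195, 185 and 208 CPM frozen, a change of -0.23 ± 0.08 (adjusted p = 0.02) that was 0.040 by limma on the deposited log2 values. The count was 4 without fixed library 2, 5 without frozen library 1, 5 by DESeq2, 1 at equal depth and 0 with the shared spread. With SMARTer 2 rose and 3 fell of 20 tested (17.8% called, 9.25% higher and 8.57% lower). Col4a1 was at 229, 192 and 208 CPM fixed against 333, 313 and 325 CPM frozen, a change of -0.63 ± 0.10, with Col4a2 at -0.55 and Col18a1 at -0.70, while Col4a4 rose by 1.51 and Col7a1 by 0.62. The same numbers rose and fell without SMARTer fixed library 3 (18.9% called, 10% higher and 8.87% lower). With the replicate number as a block the count was 7, Col4a3 and Col12a1 being added at 0.71 and 0.99. By limma it was 1, and with the shared spread 0.

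Whether fixation acted differently on the 2 samples was tested with Ovation at 2 ng as an interaction, also chosen after seeing the data, in which 2 members had a larger and 2 a smaller change in urothelium than in BC57 of 29 tested, where 5.9% of all genes were called (1.64% larger and 4.26% smaller). Col4a1 differed by 0.81 ± 0.11 (adjusted p = 3e-07) and Col4a2 by 0.70 ± 0.13, the pair whose order between the samples turned above. Col4a4 differed by -2.44 ± 0.78 (adjusted p = 0.047 in the interaction test), but it lay near the floor in urothelium. Its urothelium libraries held 4, 6 and 2 counts frozen and 5, 4 and 2 counts fixed, too few for the fixation test of urothelium alone. Col23a1 was called as well, but its frozen BC57 libraries were all at 0, so its fitted value is not a measure of size.

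The third comparison set each total RNA kit at 2 ng against the poly(A) protocol in frozen RNA, with the poly(A) libraries shared between the kits, so the values stand side by side. In urothelium Ovation gave 8 members higher and 15 lower than poly(A) of 33 tested (56.7% of all genes called, 28.1% higher and 28.6% lower). SMARTer gave 19 higher and 2 lower of 33 (57.7% called, 29% higher and 28.7% lower). With the shared spread 6 members were called for Ovation and 0 for SMARTer, and at equal depth 13 and 12. The FACIT gene Col12a1 was higher with both, at 567, 560 and 561 CPM against 187, 184 and 185 CPM with Ovation (1.60 ± 0.05) and at 455, 448 and 441 CPM against 166, 163 and 163 CPM with SMARTer (1.45 ± 0.05). Col6a3 was higher with both at 0.85 and 0.91, Col1a1 at 0.50 and 0.63, Col11a1 at 0.34 and 1.15, Col14a1 at 0.41 and 0.50, and Col24a1 at 0.89 and 1.31. With Ovation, Col10a1 at 3.02 and Col4a3 at 0.84 were higher too. The lower ones were Col11a2 (-2.41), Col7a1 (-2.13), Col16a1 (-1.28), Col5a3 (-0.97), Col20a1 (-0.88), Col18a1 (-0.81), Col4a1 (-0.47), Col4a5 (-0.45), Col4a6 (-0.45), Col4a2 (-0.39), Col6a2 (-0.38), Col6a1 (-0.34), Col17a1 (-0.28), Col5a2 (-0.18) and Col3a1 (-0.14). With SMARTer, Col4a5 (-0.42) was lower, and Col25a1 had 3 counts against 91, a ratio of 4.58 (1.52 to 22.6). Col4a1 (0.51), Col4a2 (0.72), Col4a4 (1.61), Col15a1 (0.48), Col18a1 (0.43), Col17a1 (0.35), Col3a1 (0.26), Col5a1 (0.69), Col5a2 (0.34), Col27a1 (0.42), Col6a1 (0.16), Col6a2 (0.59) and Col16a1 (0.23) were higher.

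Set directly against each other in frozen urothelium, SMARTer gave 18 members higher and 1 lower than Ovation of 29 tested (48.5% of all genes called, 24.6% higher and 23.9% lower). The count was 3 with the shared spread and 11 at equal depth. Col16a1, a FACIT gene, was at 176, 153 and 188 CPM with SMARTer and at 68.4, 58.6 and 56.8 CPM with Ovation, a difference of 1.49. Col18a1 was at 258, 242 and 245 CPM against 111, 97.9 and 110 CPM, a difference of 1.23. The widest differences were in Col11a2 (1.93) and Col7a1 (1.73), both at low level. Col4a2 (1.09), Col4a1 (0.96), Col6a2 (0.95), Col5a3 (0.91), Col11a1 (0.78), Col5a1 (0.67), Col20a1 (0.64), Col17a1 (0.61), Col15a1 (0.60), Col5a2 (0.51), Col6a1 (0.49), Col27a1 (0.48), Col3a1 (0.38) and Col4a6 (0.35) followed, and Col12a1 was lower with SMARTer at -0.17.

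In BC57 Ovation gave 2 members higher and 10 lower than poly(A) of 22 tested (59.9% of all genes called, 30.3% higher and 29.6% lower), or 5 in all at equal depth. Col4a1 was at 217, 206 and 232 CPM with Ovation and at 397, 389 and 399 CPM with poly(A), a difference of -0.86. Col8a2 (-1.78), Col16a1 (-1.53), Col4a4 (-1.22), Col18a1 (-1.21), Col7a1 (-1.18), Col4a2 (-0.96), Col6a1 (-0.91), Col4a5 (-0.74) and Col4a6 (-0.73) were lower too, and Col1a1 (2.34) and Col1a2 (1.12) were higher from levels near 1 CPM. SMARTer gave 6 higher and 2 lower of 24 (57.5% called, 29.5% higher and 27.9% lower): Col1a1 (2.16), Col6a3 (0.84), Col17a1 (0.73), Col4a2 (0.34), Col18a1 (0.30) and Col4a1 (0.17) against Col8a2 (-1.15) and Col4a5 (-0.56). The values for Col4a1 and Col18a1 turned to -0.14 and -0.010 by limma on the deposited log2 values. The SMARTer count was 1 with the shared spread, 2 at equal depth, 3 by limma and 15 with no filter on low counts. It was 6 without SMARTer library 3, which had a count in more genes than the others of its group.

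The last comparison was low against high input in urothelium. No member was called in any of 4 comparisons by edgeR: 0 of 25 for frozen Ovation at 50 pg against 2 ng (0% of all genes called), 0 of 26 at 250 pg (0%), 0 of 27 for fixed Ovation at 50 pg (0.0216%) and 0 of 29 for frozen SMARTer at 250 pg (0%). At an unadjusted p under 0.05 there were 0, 2, 5 and 3 members, and DESeq2 called 0 in each, with adjusted p missing for 20, 0, 6 and 6 of them. Limma on the deposited log2 values called 10 members, all lower at 50 pg, in fixed Ovation libraries and 0 in the other 3 comparisons. The share of all genes called by limma is not set beside this count, so it does not set the collagen genes apart. By edgeR the median log2 change in those fixed libraries was 0.093 over the members and 0.0388 over all genes. Detection of the members differed: 38 of 44 had a count in frozen Ovation urothelium at 2 ng and 35 at 50 pg, and 32 and 27 reached a mean of 1 CPM. Depth was not equal, with total counts of 1843795 to 2291690 at 2 ng and 2547239 to 3403769 at 50 pg. Of all genes, 18806 to 19412 had a count in a library at 2 ng and 15720 to 16313 at 50 pg.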

How the data were processed

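Per the submitters' processing notes, reads were handled with STAR, SAMtools and featureCounts on mm10; the notes carry no versions, and the strand setting is not given in the sources used here. Deposited tables hold raw counts and log2 values. The deposited log2 values were recomputed from the counts as log2 of the count times 1000 over the upper quartile of nonzero counts, plus 1, to within 5.33e-14. Raw counts were tested with edgeR 4.0.16 (quasi-likelihood, TMM, filterByExpr, R 4.3.3) on the 6 libraries of each comparison, with Benjamini-Hochberg adjustment over all genes tested. Alternatives used DESeq2 1.42.0 and limma 3.58.1. Intervals are exact at 95%, and intervals and floors (3 counts over a group) cover counting error only.

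Members and lists were chosen with earlier results of these data known. Per-library values are given for at most 3 members of a class, by mean CPM, and of the partner lists at most 4 called genes per comparison, by fold change among those with a mean of at least 5 CPM. Members singled out in the text for a low level or a turned sign were chosen after their values were seen.

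No 2 libraries of a group agreed within sampling noise (lowest chi-square per degree of freedom 1.50). Same-numbered libraries deviated together, with all 3 correlations over 0.1, in 2 of 27 comparisons: BC57 against urothelium with SMARTer on fixed RNA at 2 ng (0.23, 0.22 and 0.33) and fixed against frozen BC57 with SMARTer (0.21, 0.15 and 0.28). On simulated counts for BC57 against urothelium with poly(A), the test recovered 47 of 50 genes changed by 0.5 on the log2 scale. For fixed against frozen urothelium with Ovation at 2 ng it recovered 25 of 50 at 0.5 and 48 of 50 at 1. False calls were 7 in the former comparison and 10 in the latter. The simulation gave all genes the same spread, taken from the frozen urothelium libraries, and changed only genes above a floor of expected counts. Its rates therefore do not carry over to members of low count.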

Additional observations from a re-analysis of the deposited data

Results flagged for a closer look

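The fixation change differed between the kits in 7 collagen genes of urothelium at 2 ng, when SMARTer fixed library 3 was left out; the difference itself was tested as an interaction, SMARTer minus Ovation, on the log2 scale. It was -0.31 for Col3a1, -0.50 for Col5a1, -0.56 for Col5a2, -0.58 for Col4a1, -0.96 for Col4a2, -0.55 for Col6a1 and -0.62 for Col6a2. With that library kept, 0 members passed.

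The fixation change also differed between the samples with Ovation at 2 ng, urothelium minus BC57, again by an interaction test. It was 0.81 for Col4a1, 0.70 for Col4a2, -2.44 for Col4a4 and -5.39 for Col23a1. The value for Col23a1 is a fitted value against frozen BC57 libraries that were all at 0 counts, and is no measure of size. The value for Col4a4 rests on urothelium libraries with 4, 6 and 2 counts frozen and 5, 4 and 2 counts fixed.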

How the results depend on the processing

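Over single members, a value was counted as kept if its call stayed the same and, where it was called, its direction too. The direction of values not called was not compared. Of 743 values, 738 were kept with DESeq2's size factors in edgeR, 737 with upper-quartile scaling and 707 with the full DESeq2 test. With no filter on low counts 715 were kept, with limma on the deposited log2 values 672 and with the spread shared by all groups 617. The counts of members called that moved by over 1.5 times were as follows, and the cause was not tested except where fewer counts or libraries were used. Shares of all genes called are not set beside them, so they do not show whether collagen genes moved more than other genes. Thinning to equal depth gave 22 for BC57 against urothelium with poly(A), 17 for SMARTer fixed 250 pg, 1 for fixation of urothelium with SMARTer at 2 ng, 1 for fixation of BC57 with Ovation, and 13, 12, 5, 2 and 11 for the kit comparisons (Ovation and SMARTer against poly(A) in urothelium, the same in BC57, and SMARTer against Ovation). The shared spread gave 19 for SMARTer fixed 250 pg, 6, 1, 0 and 0 for fixation (urothelium Ovation 2 ng, urothelium SMARTer 250 pg, BC57 Ovation, BC57 SMARTer), and 6, 0, 1 and 3 for the kits (Ovation and SMARTer against poly(A) in urothelium, SMARTer against poly(A) in BC57, SMARTer against Ovation). DESeq2 gave 19 for SMARTer fixed 250 pg and 8, 5 and 5 for fixation (urothelium SMARTer 2 ng and 250 pg, BC57 Ovation). No filter gave 17 for SMARTer fixed 250 pg and 15 for SMARTer against poly(A) in BC57. Limma gave 1 for fixation of urothelium with Ovation at 250 pg, 1 for fixation of BC57 with SMARTer, 3 for SMARTer against poly(A) in BC57 and 10, all lower, for fixed Ovation at 50 pg against 2 ng. Without both SMARTer fixed libraries numbered 3, the count for SMARTer fixed 250 pg was 17.

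Limma reversed Col4a1 in fixed against frozen BC57 with Ovation (0.0403), and against poly(A) with SMARTer Col6a1 in urothelium (-0.017) and Col4a1 (-0.14) and Col18a1 (-0.010) in BC57; the shared spread reversed Col4a1 there (-0.00444).

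Leaving out 1 library at a time gave these ranges of members called. Shares of all genes called are not set beside them, so they do not show whether collagen genes moved more than other genes. BC57 against urothelium: poly(A) 35 to 37; frozen Ovation 25 to 25 at 2 ng, 23 to 28 at 250 pg and 22 to 24 at 50 pg; fixed Ovation 29 to 30, 28 to 29 and 21 to 25; SMARTer frozen 27 to 27 and 23 to 25, and fixed 9 to 24 and 1 to 15. Fixation of urothelium: Ovation 19 to 23, 4 to 11 and 7 to 8, SMARTer 0 to 13 and 0 to 4. Fixation of BC57: Ovation 4 to 8 and SMARTer 5 to 6. Kits in the order above: 17 to 22, 18 to 23, 9 to 13, 6 to 13 (13 without SMARTer library 2) and 15 to 19. Input: 0 in all. Interactions: 0 to 7 between kits and 3 to 4 between samples.

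With the replicate number as a block, counts moved by less than 1.5 times in every comparison, and 723 of 743 member values kept their call. In the 2 comparisons where the numbers pair the libraries, the blocked count was 22 for BC57 against urothelium with SMARTer on fixed RNA at 2 ng, where Col4a5 lost its call (adjusted p = 0.059 by edgeR), and 7 for fixation of BC57 with SMARTer. Elsewhere the libraries share only a number, correlations ran from -0.057, and in 8 of 27 comparisons every library correlated best with its own number. At SMARTer and Ovation depth, members with low counts in both groups of a comparison could not be tested. On simulated counts for fixation of urothelium with Ovation at 2 ng, 25 of 50 genes changed by 0.5 (log2) were recovered. Changes of this size can thus be missed, and the other fixation comparisons were not simulated.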
